A study of Mus musculus with 64 samples.

Results

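Transcripts of rod photoreceptors were measured in microglia sorted from the mouse retina. The transcripts are *Sag*, *Gnat1*, *Pde6a*, *Pde6b*, *Rcvrn*, *Pdc*, *Nrl*, *Gngt1* and *Prph2*, 9 of the 25239 genes counted, and they were chosen by name as known rod genes. All 9 passed the filter on low counts, as did 13584 genes in all. The microglia came from *Cx3cr1CreER:R26-tdTomato* mice, in which a tamoxifen-inducible Cre recombinase expressed from the *Cx3cr1* locus switches on the red protein tdTomato in microglia and other *Cx3cr1*-expressing cells. All mice, controls included, carried this label in heterozygous form on a C57BL/6J background and were given tamoxifen as eye drops. Animals aged 3, 9 or 18 months, of both sexes, were either naive, that is uninjected, or were examined 12 or 28 days after an intravitreal injection of AAV2 without a transgene at 1E10 genome copies per eye. From each retina, 600 living cells with high tdTomato were sorted, so that each library is 1 retina. There were 62 libraries, with 19 naive, 22 at day 12 and 21 at day 28. The 18 groups of age, sex and state held 2 to 4 libraries each. The naive eyes received no injection, so that the injection and the virus cannot be told apart here.

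Rods turn light into an electrical signal by a cascade in the outer segment. Light leads to the activation of the G protein transducin, transducin switches on a phosphodiesterase that breaks down cyclic GMP, and cation channels close as cyclic GMP falls. Arrestin, recoverin and phosducin set how long and how strongly each step runs, while the rod identity of the cell is set by the transcription factor Nrl, acting with Crx. Microglia are immune cells of the same tissue, are not known to make these proteins, and are known to engulf photoreceptor debris. Per the study's methods, the retinas were broken up mechanically before sorting. Whether the rod RNA was ingested or ambient, that is carried over from other cells, was not tested.

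Total counts ran from 1468478 to 9836173 per library (median 4188992), and a floor of 3 counts was worth 0.305 to 2.04 CPM, where CPM is a gene's counts per 1000000 counts of its library. The 12 microglia markers, among them *P2ry12*, *Cx3cr1* and *Tmem119*, summed to 15400 to 61900 CPM, and none had a median of 0. At day 12, 3 libraries stood apart from the other 19 by these markers. Replicate 2 of the 9-month-old males and replicates 1 and 2 of the 18-month-old females had marker sums of 34300, 39600 and 34300 CPM, against 15400 to 25100 CPM in the rest. In these 3, the 6 T cell genes summed to 94.1, 0.0 and 13.1 CPM, beside a day 12 median of 96.6 CPM. One library labelled as of 18-month-old females at day 28, whose sex markers go against its label, was left out of all comparisons.

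Short regulatory sequences of the rod transcripts are shown first, and whether they bear on the levels in these libraries was not tested. Promoter windows, the 250 bases before the RefSeq start on GRCm38.p6, were held for 6 of the 9 genes. They were searched on both strands for TAATCC, the core letters bound by homeodomain factors such as Crx, and for TGCTGA, part of the element bound by Maf-family factors such as Nrl. TAATCC occurred in the windows of *Sag* and *Gngt1*, and in 6.25% of the 32851 promoters of the table. TGCTGA occurred in those of *Sag* and *Pde6b*, and in 16.1% of all promoters. *Sag* held both, as did 0.962% of all promoters, and 3 windows, of *Pdc*, *Nrl* and *Prph2*, held neither. All 250 bases of the *Nrl* window and 19 of the *Prph2* window lie inside the gene as GENCODE M21 draws it. A match describes letters only and is not evidence of binding. In the sequences, written 5′ to 3′ on the gene's strand, capitals mark the matches, and GGATTA is TAATCC read on the other strand.
Sag, chr1:87803430-87803679, plus strand: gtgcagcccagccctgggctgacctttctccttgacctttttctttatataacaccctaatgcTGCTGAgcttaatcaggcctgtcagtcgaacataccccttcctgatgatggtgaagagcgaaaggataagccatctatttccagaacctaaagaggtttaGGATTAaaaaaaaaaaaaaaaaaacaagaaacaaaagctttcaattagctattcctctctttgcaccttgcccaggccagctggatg
Pde6b, chr5:108388123-108388372, plus strand: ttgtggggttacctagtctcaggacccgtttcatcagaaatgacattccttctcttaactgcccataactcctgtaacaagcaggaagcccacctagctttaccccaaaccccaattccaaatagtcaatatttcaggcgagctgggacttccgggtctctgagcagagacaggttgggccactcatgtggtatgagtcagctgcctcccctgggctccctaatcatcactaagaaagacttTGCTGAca
Gngt1, chr6:3993952-3993981, plus strand: tcatattaggggGGATTAtgaagaagcttt
The match of *Sag* to TAATCC starts at base -87 and that to TGCTGA at base -187, counted back from the gene's start. In *Pde6b* TGCTGA starts at base -8. In *Gngt1* TAATCC starts at base -44, and only 30 bases are given because 216 bases of that window lie inside the gene as GENCODE M21 draws it.

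Rod transcripts were present in every library. The 9 together took 0.0421 to 0.342% of a library's counts, with a median of 0.151%. That is 1294 to 15226 counts per library. Among the single values, only *Nrl* was at 0, in 1 library, a naive 18-month-old female. There the depth allows *Nrl* up to the worth of 3 counts, and that library also had the lowest naive sum of the 9, at 609 CPM.

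The levels of the 9 differed widely from each other. Per kilobase of exon, *Gngt1* stood highest with a median of 337 CPM per kb, before *Gnat1* with 153 and *Sag* with 126. *Rcvrn*, *Pdc* and *Prph2* followed at 63.9, 58.9 and 49.7 CPM per kb. *Pde6b* lay at 15.0, *Nrl* at 5.98 and *Pde6a* at 2.38 CPM per kb. Of these neighbours, *Prph2* was above *Pde6b* and *Pde6b* above *Nrl* in 62 of 62 libraries, and *Sag* above *Rcvrn* in 60. The order of *Gnat1* and *Sag* held in 44 libraries, that of *Rcvrn* and *Pdc* in 43 and that of *Pdc* and *Prph2* in 43, so these neighbours were not separated beyond their spread. No exon of the 9 overlaps an exon of another gene in GENCODE M21. The exon lengths are those of GENCODE M21 too, whereas the authors counted reads on the refGene annotation. Values per kilobase and their order are therefore approximate.

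In naive retinas the 9 summed to 609 CPM in the lowest, 1830 in the median and 3420 in the highest of 19 libraries. At day 12 the sum was 421, 661 and 2890 CPM in 22 libraries, and at day 28 it was 788, 1600 and 3000 CPM in 21. The day 12 median was thus 36.0% of the naive one and the day 28 median 87.0%. Of the 22 day 12 libraries, 20 lay below the naive median and 7 below the lowest naive library, so the 2 sets overlapped. The sum is a share of all counts of a bulk sample, in which fewer cells of a type and less RNA per cell cannot be told apart.

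**Figure D1:**
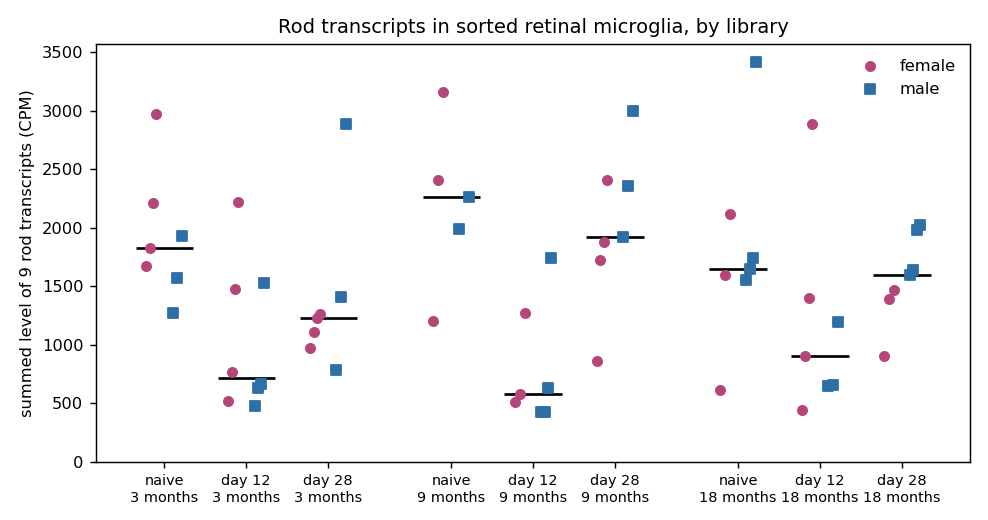
Summed level of the 9 rod transcripts (CPM, linear axis) in each of the 62 libraries by age and state, circles for females, squares for males, with a line at each group's median. The day 12 medians are 717, 582 and 907 CPM at 3, 9 and 18 months, below the naive medians of 1830, 2260 and 1650 CPM.

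Transducin carries the light signal to the phosphodiesterase, and 2 of its rod subunits are among the 9. *Gnat1* encodes the rod alpha subunit (chromosome 9, minus strand, 107674474 to 107679712, GRCm38). At 9 months, its level in the 5 naive libraries was 257, 433, 513, 730 and 975 CPM. At day 12 it was 101 to 474 CPM in 7 libraries with a median of 148. Of those 7, 5 lay below the lowest naive library. The fitted difference was a log2 fold change of -1.38 (SE 0.37, edgeR adjusted p = 0.00572). *Gngt1* encodes the rod gamma subunit (chromosome 6, plus strand, 3993792 to 3997436). Naive 9-month-old retinas had 216, 389, 592, 759 and 823 CPM of it, and day 12 retinas 54.9 to 460 CPM with a median of 137. *Gngt1* was lower by a log2 fold change of -1.44 (SE 0.46, edgeR adjusted p = 0.022). For both subunits, replicate 2 of the males and replicate 3 of the females at day 12 lay among the naive values, and the other 5 lay below them. *Gnb1*, the beta subunit of rod transducin, which many other cells also express, had a log2 fold change of -0.00 at this age and adjusted p = 1.0 in the same edgeR fit.

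Pde6a and Pde6b form the catalytic pair of the rod phosphodiesterase. *Pde6b* (chromosome 5, plus strand, 108388391 to 108432397) had 35.7, 62.5, 72.6, 160 and 187 CPM in the naive 9-month-old retinas and 9.93 to 67.5 CPM at day 12, with a median of 17.1. Its log2 fold change of -1.87 (SE 0.46, edgeR adjusted p = 0.00248) was the most negative of the 9 at this age. *Pde6a* (chromosome 18) was low throughout, at 5.24 to 34.9 CPM in naive and 3.48 to 22.3 CPM in day 12 retinas of 9 months, and its log2 fold change of -0.77 did not pass the test (adjusted p = 0.203). The interval of that change ran from -1.61 to 0.07 on the log2 scale, which includes the change of *Gnat1*.

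Arrestin, recoverin and phosducin shape the response. *Sag*, rod arrestin, which ends the light signal (chromosome 1, plus strand, 87803680 to 87845158), had 178, 292, 366, 383 and 430 CPM in naive 9-month-old retinas. At day 12 it had 67.7, 70.7, 70.9, 84.5, 129, 191 and 265 CPM, of which 5 values lie below every naive one. Its log2 fold change was -1.40 (SE 0.36, edgeR adjusted p = 0.00333). *Rcvrn*, the calcium sensor recoverin (chromosome 11, plus strand, 67695326 to 67703333), had 60.8, 80.7, 115, 127 and 134 CPM in naive retinas. At day 12, 6 of 7 libraries lay between 19.6 and 26.1 CPM and 1, replicate 2 of the males, at 102 CPM. Its log2 fold change was -1.75 (SE 0.38, edgeR adjusted p = 5.14e-04), the smallest p of the 9 at this age. *Pdc*, phosducin, which binds transducin's beta and gamma subunits (chromosome 1, plus strand, 150319417 to 150333906), had 124, 296, 311, 327 and 344 CPM in naive retinas and 44.8 to 199 CPM at day 12. Again 6 of 7 day 12 libraries were below the lowest naive one. Its log2 fold change was -1.76 (SE 0.39, edgeR adjusted p = 8.45e-04).

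*Prph2* encodes peripherin 2, which shapes the rim of outer segment discs (chromosome 17, plus strand, 46910459 to 46924933). Its naive 9-month-old values were 131, 148, 156, 280 and 351 CPM, and those of day 12 ran from 34.0 to 221 CPM with a median of 47.0. The log2 fold change was -1.47 (SE 0.35, edgeR adjusted p = 0.00153), and 6 of 7 day 12 libraries were below every naive one. *Nrl* encodes the transcription factor that sets rod over cone fate (chromosome 14, minus strand, 55518978 to 55524981) and is not part of the outer segment. It had 5.87 to 34.9 CPM in naive and 3.09 to 20.9 CPM in day 12 retinas, and its log2 fold change of -1.06 did not pass the test (SE 0.58, adjusted p = 0.21). The 2 members that did not pass at 9 months, *Pde6a* and *Nrl*, were also the 2 lowest per kilobase.

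**Figure D2:**
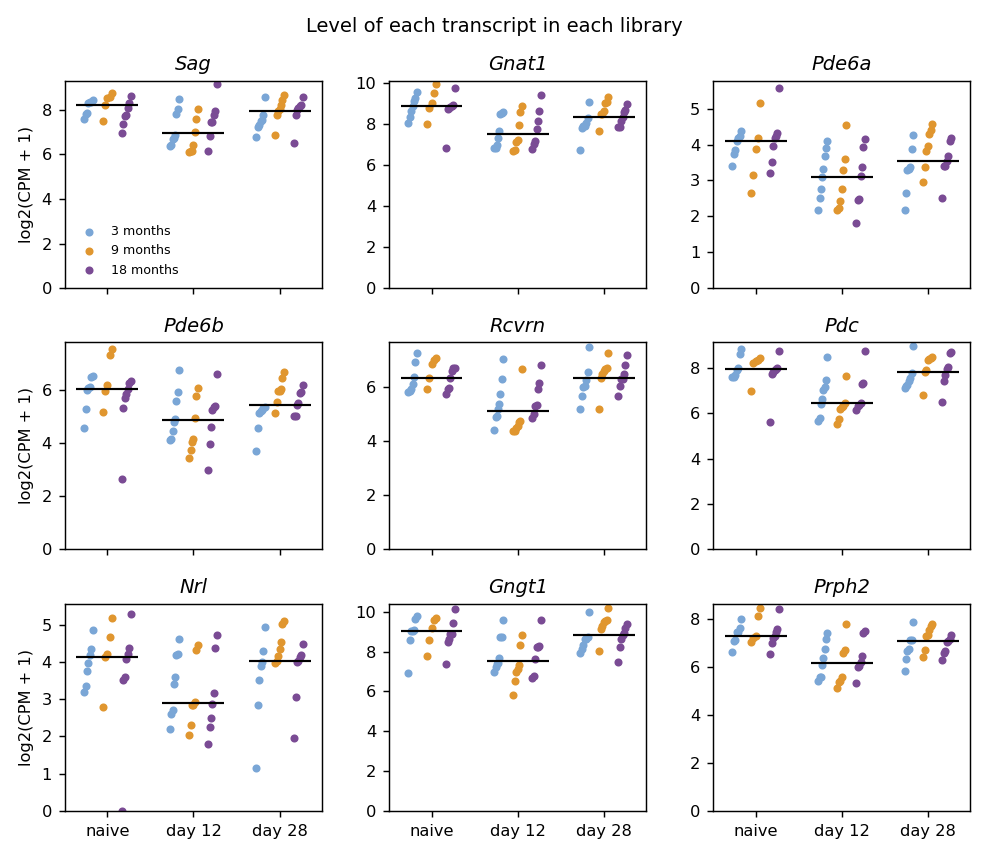
Level of each of the 9 transcripts as log2(CPM + 1), from 0, in each library by state, with colours for ages 3, 9 and 18 months and a line at the median of each state. For all 9, the day 12 median is below the naive one, at 34.7 to 47.0% of it on the CPM scale.

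At 9 months, then, 7 of the 9 transcripts were lower at day 12 and none higher. Over all genes tested, 18.4% were called at this age and 7.91% were called lower. Leaving out replicate 2 of the 9-month-old males, the call count stayed at 7, with 2770 genes called in all. The log2 fold changes of those 7 then ran from -2.19 for *Pde6b* to -1.59 for *Sag*. Against a log2 fold change of 1 in place of 0, no member passed.

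At 3 months no member was called at day 12, where 16.6% of all genes were. All 9 log2 fold changes were negative, with a median of -0.60 beside 0 over all genes, and 3 had an unadjusted p under 0.05. The naive sums were 1270, 1830 and 2970 CPM (lowest, median, highest of 7) and those of day 12 were 478, 717 and 2220 CPM (of 8). Of the 8 day 12 libraries, 5 lay below the lowest naive library and the others among the naive ones. *Pdc* came closest to the threshold, with a log2 fold change of -0.91 (SE 0.35, edgeR adjusted p = 0.0631), followed by *Gnat1* with -0.85 (SE 0.33, adjusted p = 0.0685) and *Prph2* with -0.76 (SE 0.31, adjusted p = 0.0783). This count rests on single libraries. It was 3 without replicate 2 of the day 12 males, 2 without replicate 2 of the day 12 females, and 1 without replicate 4 of the day 12 females or without replicate 2 of the naive females. In the same order, these fits called 2066 of 13547, 2061 of 13559, 2216 of 13577 and 2049 of 13568 genes.

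At 18 months no member was called at day 12 either, where 15.6% of all genes were. The 9 log2 fold changes were again all negative, with a median of -0.52 beside 0.03 over all genes, and 2 had an unadjusted p under 0.05. The naive sums were 609, 1650 and 3420 CPM and those of day 12 were 444, 907 and 2890 CPM, both of 7 libraries. *Pde6a* came closest, with a log2 fold change of -0.93 (SE 0.39, edgeR adjusted p = 0.0918). *Sag* stood at -0.05 (SE 0.33, adjusted p = 0.964) with an interval from -0.70 to 0.61, the least negative of the 9. Leaving out either of the 18-month-old female libraries that stood apart left the count at 0, but the 2 were not left out together. The second of 2 collection days alone, a subset described below that holds neither, gave 8 beside 1785 of 12359 genes called. Leaving out replicate 1 of the day 12 males gave 1, beside 1707 of 13574 genes called.

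Whether the day 12 change differed between ages was tested directly. No member passed for 9 against 3 months or for 18 against 3 months, where 0.0294% and 0.00736% of all genes did. The differences of change between 9 and 3 months had a median of -0.77 over the 9 and were negative for all 9. They had an unadjusted p under 0.05 for 2 of them, and the smallest adjusted p was 0.661. A larger change at 9 months is therefore not shown, although with the sexes weighted equally members were called at 9 months and not at 3 or 18 months.

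With the 3 ages weighted equally, a comparison added after the values were seen, 8 of the 9 were lower at day 12. This comparison called 36% of all genes in either direction and 15.8% lower. The log2 fold changes were -1.06 for *Pdc*, -0.99 for *Prph2*, -0.98 for *Gngt1*, -0.96 for *Gnat1*, -0.91 for *Rcvrn* and -0.89 for *Pde6b*. *Pde6a* had -0.77 and *Sag* -0.67. Their edgeR adjusted p ran from 2.16e-05 for *Prph2* to 0.00509 for *Pde6a*. *Nrl* had -0.59 (SE 0.31, adjusted p = 0.145) with an interval from -1.22 to 0.04. Leaving out each library in turn left the count at 8, with 4458 to 5031 genes called in all. In such fits the estimated trend of spread over genes was kept from the full fit.

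**Figure D3:**
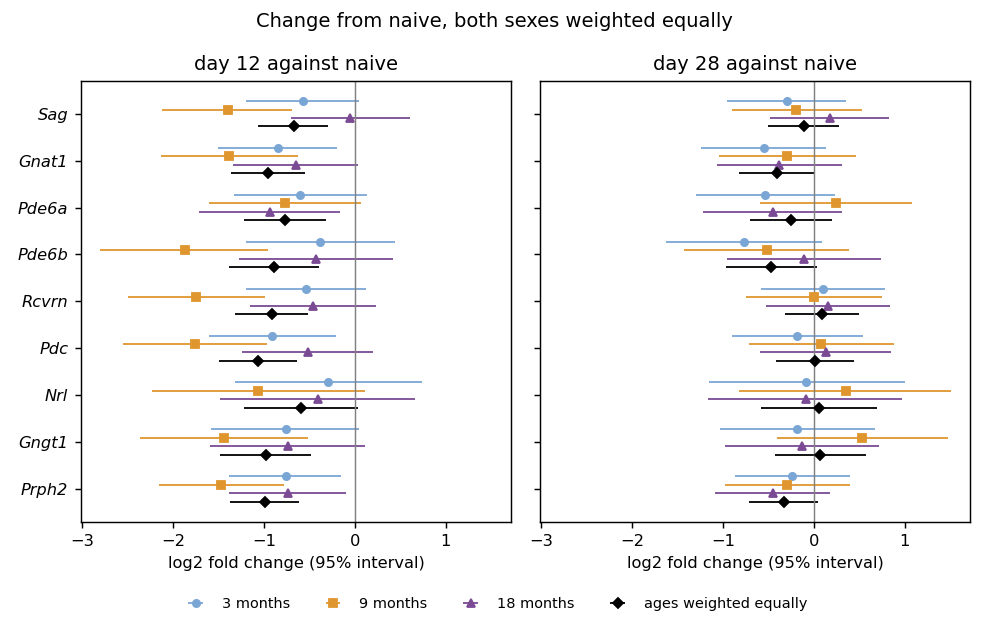
Log2 fold change of each transcript at day 12 (left) and day 28 (right) against naive, with 95% intervals, at 3, 9 and 18 months and with ages weighted equally, from the edgeR fit of 62 libraries. At day 12 all points lie below 0 and those of 9 months lie lowest for 8 of the 9, while at day 28 the points lie on both sides of 0.

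Samples were collected on 2 days, 27 libraries on the first and 35 on the second, and the deposited counts had this effect removed. Within the second day, a subset added after the values were seen and analysed from uncorrected counts with the sexes together, the log2 fold changes at day 12 of the 8 called members, with ages weighted equally, ran from -1.37 for *Pdc* to -0.80 for *Pde6a*, and all 9 members were called. Within the first day those of the 8 ran from -0.91 for *Pde6a* to -0.43 for *Sag* and none was called, with 1806 of 12629 genes called, against 4195 of 12359 on the second day. The direction was thus the same on both days for the 8 called members. All 3 day 12 libraries that stood apart by microglia markers were collected on the first day, and their part in the difference between the days was not tested. At 9 months alone, 5 were called on the second day beside 2095 of 12359 genes, and 0 on the first beside 358 of 12629. On the first day, 2 naive and 4 day 12 libraries of 9 months remained. There the 7 members called over both days had log2 fold changes from -1.97 for *Pde6b* to -1.26 for *Rcvrn*. At 18 months, the second day gave 8 called members beside 1785 of 12359 genes, and the first gave 0 beside 23 of 12629. In the uncorrected counts, *Gngt1*, *Nrl* and *Pde6a* had medians 3.27, 2.99 and 2.89 times as high on the second day as on the first, whereas the other 6 had ratios from 0.801 to 1.33. In the corrected counts the ratios of all 9 lay between 0.879 and 1.14.

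At day 28 none of the 9 was called against naive at any age, where 2.78%, 4% and 4.82% of all genes were called at 3, 9 and 18 months. None had an unadjusted p under 0.05 at any of the 3 ages. The summed level was 788, 1230 and 2890 CPM (lowest, median, highest) at 3 months, 864, 1920 and 3000 CPM at 9 months and 900, 1600 and 2020 CPM at 18 months, in 7 libraries each. With ages weighted equally, none was called either, against 15.5% of all genes, and the log2 fold changes ran from -0.47 for *Pde6b* (interval -0.97 to 0.04) to 0.09 for *Rcvrn* (interval -0.32 to 0.50). For *Gnat1*, *Pde6b* and *Prph2* these intervals still reach -0.82, -0.97 and -0.71, so decreases of that size at day 28 lie within them. The day 28 libraries were compared with day 12 as well, a comparison added after the values were seen that shares the day 12 libraries with the one above. At 9 months 7 of 9 were higher at day 28, where 9.32% of all genes were called and 4.11% called higher. With ages weighted equally 6 of 9 were higher, beside 18.2% of all genes called and 7.92% called higher in the latter. The increases were 1.07 for *Pdc*, 1.05 for *Gngt1*, 1.0 for *Rcvrn*, 0.66 for *Prph2*, 0.57 for *Sag* and 0.55 for *Gnat1* on the log2 scale, with edgeR adjusted p from 9.89e-05 to 0.0396. At 3 and 18 months 0 of 9 passed, where 2.79% and 2.8% of all genes did, and 1 and 0 of the 9 had an unadjusted p under 0.05.

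Age alone did not move the members past the threshold. In naive retinas, 9 against 3 months gave a median log2 fold change of 0.32 over the 9 and 18 against 3 months one of -0.02, with 0 members called in both and 0 and 7 of all 13584 genes called (0% and 0.0515%). None of the 9 had an unadjusted p under 0.05 in either. At day 12, the 9-month-old retinas had log2 fold changes from -0.88 to -0.15 against 3 months. All 9 were negative, 2 with an unadjusted p under 0.05, and 0 were called beside 0.611% of all genes. At day 28 the same comparison was positive for all 9, with a median of 0.63, 1 unadjusted p under 0.05 and 0 called, beside 0% of all genes. The 18-month-old retinas had medians of 0.06 at day 12 and 0.07 at day 28 against 3 months, with 0 members called or under an unadjusted p of 0.05, beside 0.64% and 0.00736% of all genes called.

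Sex was compared in the same way. Males against females gave 0 called members in naive, day 12 and day 28 retinas, where 0.081%, 0.0589% and 0.0589% of all genes were called. The median log2 fold changes, male over female, were -0.02, -0.32 and 0.49. The numbers of members with an unadjusted p under 0.05 were 0, 2 and 1. At 18 months and day 28 alone, the median was 0.69, with 1 member under an unadjusted p of 0.05 and 0 called, beside 0.0442% of all genes. At 18 months and day 12, males had a median log2 fold change of -1.22 against naive, with *Pde6a* and *Prph2* called beside 8.91% of all genes, and females one of 0.02 with none called beside 3.49%. These calls are not stable. *Prph2* was not called in 5 of 7 fits that left out 1 library of these groups (each day 12 male, and replicates 3 and 4 of the naive males) and in 6 of 10 other alternatives. *Pde6a* was not called in 3 of 7 (day 12 replicates 2 and 3 and naive replicate 4) and in 2 of 10. At 9 months and day 12, 4 members were called in females beside 11.2% of all genes, *Rcvrn*, *Pdc*, *Prph2* and *Pde6b*, and 1 in males beside 4.6%, *Sag*. Of these, *Rcvrn* was called in each of 6 fits that left out 1 library, whereas *Sag* was not called in 5 of 6. The difference between the sexes in the change at 18 months was tested after it was seen. It was negative for all 9, with a median of -1.21, and no member passed (smallest edgeR adjusted p = 0.444 for *Pde6a*, 3 with an unadjusted p under 0.05), so a sex difference is not shown. The 2 female libraries that stood apart by microglia markers belong to the 4 day 12 females of 18 months, with summed rod levels of 1400 and 2890 CPM, against 444 and 907 CPM in the other 2.

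The 9 transcripts varied together over libraries. Pearson's r of log2 CPM over the 62 libraries had a median of 0.733 over the 36 pairs and ran from 0.531 for *Sag* with *Nrl* to 0.945 for *Gnat1* with *Prph2*. With the mean of each of the 18 groups removed, the median was 0.703 and the range 0.461 to 0.93, so libraries of the same group also varied together. The points share their libraries, and total counts had an r of -0.0127 with the mean log2 level of the members. The number of genes detected had an r of -0.186 with it. The share of each in their sum is given by state. *Gngt1* made up a median 29.1% of the sum in naive, 26.4% at day 12 and 32.1% at day 28 libraries. *Gnat1* made up 25.0, 24.3 and 21.2%, and *Sag* 14.7, 16.6 and 13.5%.

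Among 13575 other genes tested, those most like the members were rod genes as well. The r with the members' mean log2 CPM was 0.94 for *Unc119*, which carries transducin's alpha subunit, 0.929 for *Rom1*, the disc rim partner of peripherin 2, and 0.911 for *Pde6g*, the inhibitory phosphodiesterase subunit. *Cngb1*, *Reep6*, *Tulp1*, *Slc24a1*, *Guca1b* and *Prcd* were also among the 10 highest, at 0.88 to 0.822. All 10 belong to a list of 39 other rod genes that holds no member. Only 12 genes exceeded 0.8, and the median r over all genes was 0.0417. With group means removed, *Unc119* had 0.912 and *Map1b*, a microtubule-associated protein of neurons that is on none of the lists, ranked among the 10 with 0.84.

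**Figure D4:**
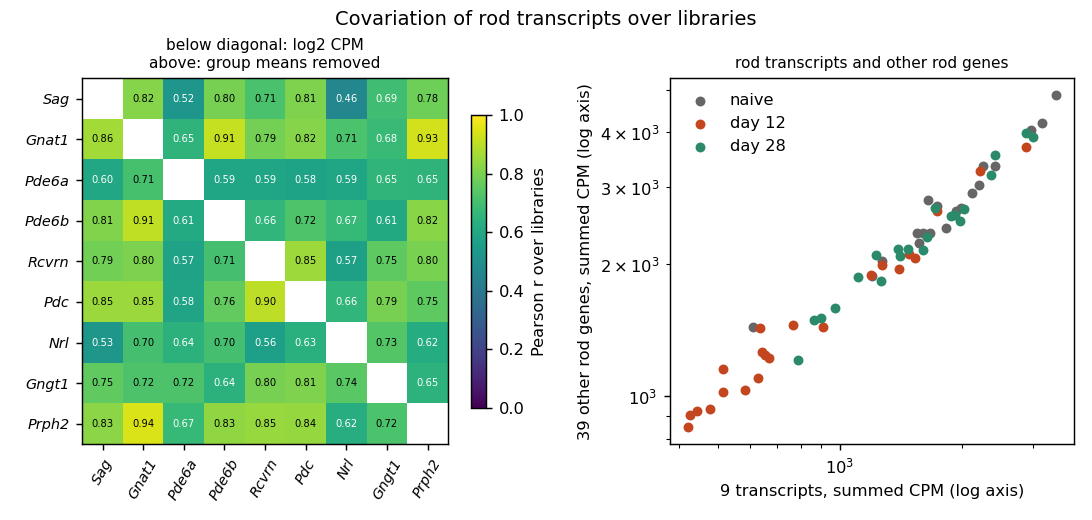
Left, Pearson r between the log2 CPM of each pair of the 9 transcripts over 62 libraries, below the diagonal as measured (0.531 to 0.945) and above it with group means removed (0.461 to 0.93). Right, summed CPM of 39 other rod genes against that of the 9, both on log axes, by state.

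The sum of the 39 other rod genes was 1440, 2680 and 4860 CPM in naive, 848, 1350 and 3690 CPM at day 12 and 1210, 2160 and 3980 CPM at day 28 (lowest, median, highest). With ages weighted equally, 20 of the 39 were lower at day 12 and 0 higher, with a median log2 fold change of -0.73. Over all genes, 15.8% were called lower in this comparison. *Pde6g* stood at -1.20 (SE 0.22, edgeR adjusted p = 1.28e-05) and *Unc119* at -0.95 (SE 0.18, adjusted p = 2.5e-05). At 9 months 15 of the 39 were lower, beside 7.91% of all genes called lower. At 3 months only *Reep6* was, and at 18 months only *Guca1b* and *Rom1*, beside 16.6% and 15.6% of all genes called in either direction. At day 28, 0 of 39 were called with ages weighted equally, beside 15.5% of all genes.

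Cone genes were described by a list of 13 that shares *Guca1a* with the rod list, and 12 were tested. At day 12, 1 was lower, *Guca1a* (log2 fold change -0.46, edgeR adjusted p = 0.0217), and 3 were higher, *Gnb3*, *Pde6c* and *Rxrg*. With ages weighted equally, as here, 36% of all genes were called. *Cnga3* and *Cngb3*, the cone channel subunits, had medians of 0, and the list's median sum of 610 CPM rested mainly on *Gngt2*, with a median of 402 CPM. Next came *Guca1a* with 116 CPM and *Rxrg* with 31.3 CPM, so the sum is not read as a level of cone RNA. At day 28, 6 of the 12 were higher and 0 lower, beside 15.5% of all genes called. Among the 6 was *Rxrg*, which activated microglia also express, at 1.94 on the log2 scale (adjusted p = 1.21e-11 in the same edgeR fit). The cone opsins *Opn1mw* at 3.72 (edgeR adjusted p = 0.00518) and *Opn1sw* at 1.82 (adjusted p = 0.0472) were also higher. Neither opsin was among the 3 genes of highest median CPM in the list.

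Of the other retinal cells, bipolar cell genes summed to 6.10 to 246 CPM, with 4 of 10 markers at a median of 0, *Grm6*, *Isl1*, *Lrtm1* and *Vsx1*. At day 12, 1 of 9 tested was lower, *Prkca* at -1.31 (edgeR adjusted p = 2.59e-06), which immune cells also express. *Onecut1*, *Onecut2* and *Lhx1* of horizontal cells, *Gad1*, *Gad2*, *Slc32a1* and *Tfap2a* of amacrine cells, and *Pou4f1* and *Slc17a6* of ganglion cells also had medians of 0. Müller glia genes summed to 229 to 612 CPM and, of 10, 2 were lower and 2 higher at day 12. These counts of the other cell lists stand beside the 36% of all genes called in this comparison, and nothing particular to the lists is read from them. In the same comparison, 1 of 7 ganglion cell genes was higher (*Thy1*, which T cells also express), as were 2 of 5 amacrine genes (*Gad2* and *Slc6a9*), 1 of 3 endothelial genes (*Kdr*) and 1 of 2 astrocyte genes (*Aldh1l1*). Of 5 pigment epithelium genes, *Rgr* was lower and *Best1* higher, and 0 of 3 horizontal cell genes were called. No rod gene, of the 39 or the 9, had a median of 0.

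The microglia markers also had a lower summed level at day 12. Their sum had a median of 42200 CPM in naive, 20000 at day 12 and 28500 at day 28. Of 12, 10 were lower at day 12 with ages weighted equally, such as *P2ry12* at -2.38 (edgeR adjusted p = 2.95e-16), and 2 were higher, *Aif1* and *Itgam*. This comparison called 36% of all genes in either direction. Set against this sum, the 9 rod transcripts came to a median of 4.01% in naive (1.44 to 8.79%), 3.54% at day 12 (2.11 to 9.92%) and 5.07% at day 28 (2.42 to 10.7%). By this ratio 14 of 22 day 12 libraries lay below the naive median, against 20 of 22 by CPM. The reference markers themselves moved, as given above. T cell genes, 6 of 6, were higher at day 12, and their sum had a median of 0.76 CPM in naive, 96.6 at day 12 and 66.2 at day 28. Of 4 monocyte and granulocyte genes, 3 were higher at day 12, *Ccr2*, *Ly6c2* and *Plac8*, with median sums of 13.6, 56.1 and 8.27 CPM in naive, day 12 and day 28 libraries. The part of any of these cell types, or of a change in the microglial RNA, in the rod result was not tested.

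**Figure D5:**
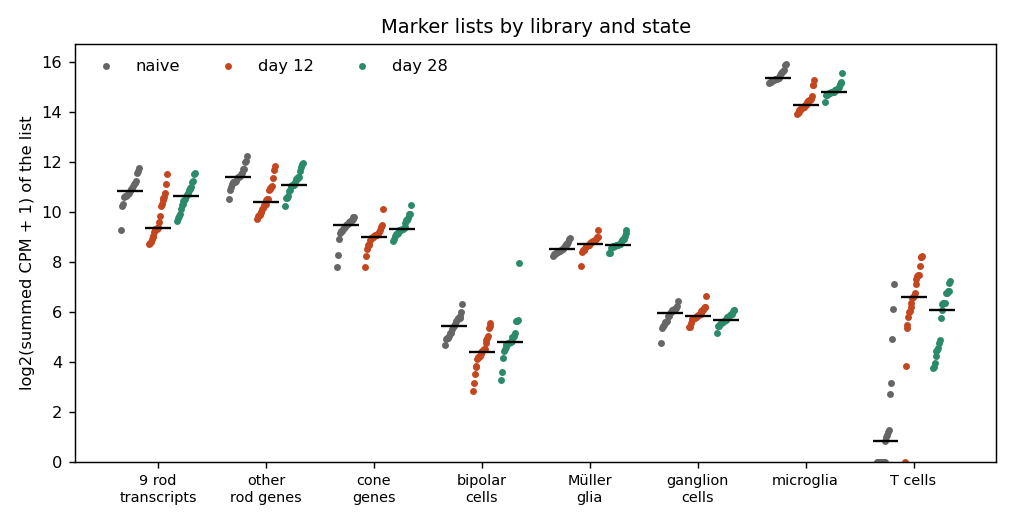
Log2 of the summed CPM + 1 of 8 marker lists in each library by state, with a line at the median. Rod, other rod, cone, bipolar, ganglion cell and microglia lists have lower medians at day 12 than in naive. Microglia stand at 20000 against 42200 CPM, cone genes at 515 against 717 CPM and ganglion cell genes at 56.3 against 60.6 CPM. The Müller glia and T cell lists are higher.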

How the data were processed

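Per the labels and the study's methods, microglia were sorted into lysis buffer, cDNA was amplified with SMART-Seq v4 over 16 cycles and libraries were made with Nextera XT. The authors aligned reads to mm10 with STAR 2.7.8a, counted reads per gene with featureCounts, and removed the effect of collection day with ComBat_seq. The deposited counts after that step, whole numbers per gene that were not normalized, were used here except where uncorrected counts are named. A corrected count is an estimate, so the correction can shift low genes.

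CPM are counts per 1000000 of a library's total. Differences were tested in edgeR 4.0.16 (R 4.3.3) with TMM scaling, filterByExpr, a quasi-likelihood fit of 18 group means to 62 libraries, sexes weighted equally, and Benjamini-Hochberg adjustment over 13584 genes (threshold 0.05). Counting floors cover counting error only, since amplified reads are not independent molecules. Libraries are single retinas per the study's methods, and no pair among 85 within-group pairs was identical. Per the study's methods, the fellow eyes went to flow cytometry or tissue staining. Exon lengths came from GENCODE M21, not from the refGene annotation on which the authors counted reads, and promoters from RefSeq (GRCm38.p6). Code was tested on simulated data.

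Named were the 9 members, from each marker list the 3 genes of highest median CPM and any called gene where 3 or fewer were called, and the 10 genes most correlated with the members. Markers at a median of 0, *Opn1sw*, *Opn1mw*, *Gnb3*, *Pde6c*, *Tmem119*, *Cx3cr1* and *Itgam* fall outside this rule and were named after their values were seen. Some genes that the rule names are not reported here. Members and lists were chosen with earlier results of these data known. One library with conflicting day labels was placed by its title, and the library left out has sex markers against its label.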

Additional observations from a re-analysis of the deposited data

Results flagged for a closer look

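In groups of 4 libraries, a single library was called far from the others where its gap to the nearest exceeded Dixon's critical value at 95%. Of 90 such tests over the 9 transcripts and their sum, 13 passed, where chance flags about 1 in 20, and the 9 transcripts are correlated, so these are not 13 separate events. They fall in 4 libraries.

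Among 9-month-old males at day 12, replicate 2 was high. Its sum of the 9 was 1740 CPM, against 421 to 634 CPM in the other 3, with *Sag* at 191 CPM (others 67.7 to 84.5), *Pde6a* at 11.1 CPM (3.48 to 4.33) and *Rcvrn* at 102 CPM (19.6 to 26.1). Its microglia markers summed to 34300 CPM. Among 3-month-old males at day 12, replicate 2 had *Sag* at 259 CPM (82.7 to 104), *Gnat1* at 387 CPM (111 to 156), *Pde6b* at 108 CPM (16.5 to 29.5) and *Rcvrn* at 78.5 CPM (28.6 to 35.9). Among naive 18-month-old males, replicate 4 had a sum of 3420 CPM, against 1550 to 1740 CPM in the other 3, with *Gnat1* at 875 CPM (433 to 467), *Pde6a* at 46.9 CPM (17.2 to 18.9) and *Gngt1* at 1110 CPM (361 to 471). Among 9-month-old females at day 28, replicate 3 was low in *Pde6b*, at 34.0 CPM against 61.5 to 65.3 CPM.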

How the results depend on the processing

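The count of members called was recomputed with DESeq2, its size factors, uncorrected counts with and without collection day, no filter, other thresholds, the 18-month-old male library with conflicting day labels placed at day 12, the left-out library put back, each collection day alone, only the compared groups, and each library left out. No result reversed. At 9 months 5 to 7 were called at day 12 under each of these with 2 exceptions. A test against a log2 fold change of 1 gave 0, both there and with ages weighted equally, and the first collection day alone gave 0 in both. The second collection day alone gave 8 at 18 months, beside 1785 of 12359 genes. Both single-day subsets were added after seeing the data. At an adjusted p under 0.1, day 12 gave 3 at 3 months and 1 at 18 months, beside 2945 and 2876 of 13584 genes. Without a filter on low counts, day 12 gave 5 at 3 months and 3 at 18 months, beside 2201 and 2133 of 20135 genes. In that fit, 9 against 3 months gave 3 at day 12 and 1 at day 28, beside 436 and 38 genes. Males against females gave 1 at day 28, beside 26 genes. The change at day 12 differed for 2 between 9 and 3 months and for 1 between the sexes at 18 months, beside 160 and 134 genes. Day 28 with ages weighted equally gave 2, beside 2166 genes. With only the compared groups in the fit, day 12 at 3 months gave 3, beside 2517 of 11650 genes. The cause was not tested.

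For day 12, leaving out 1 library at a time gave 0 to 3 at 3 months, 6 to 7 at 9 months and 0 to 1 at 18 months. Over all genes these fits called 1772 to 2241, 1465 to 2770 and 1552 to 2290. For 9 against 3 months at day 12, leaving out 1 library gave 0 to 1. The 1 came without replicate 2 of the 9-month-old day 12 males, beside 305 of 13572 genes. Libraries with the same replicate number did not deviate together across groups (mean correlation -0.0114 over 464 pairs, 0.00407 over 1348 pairs with different numbers, 30 same-number pairs over 0.1), so the numbers do not pair them. With the replicate number as a block, 2 members were called at day 12 at 3 months, beside 2172 of 13584 genes. No other count of members given here moved by over 1.5 times with that block.

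Over all genes, the calls at day 12 with ages weighted equally were 4890, and 1021 with the test against a log2 fold change of 1 and 1806 on the first collection day. At 9 months they were 2495, against 562, 358 and, with only the compared groups, 1247. At 3 and 18 months, 2261 and 2113 became 455 and 443 with that test and 493 and 23 on the first collection day, 1308 on the second at 3 months, and 1359 with only the compared groups at 18 months. At day 28 the ranges over alternatives were 6 to 805 at 3 months, 9 to 961 at 9 months and 19 to 1018 at 18 months, against 377, 543 and 655, and 311 to 2727 with ages weighted equally, against 2108. Groups of 2 to 4 libraries limit what can be called, and *Pde6a* and *Nrl* have low counts.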

Other observations

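The left-out library, labelled as one of 18-month-old females at day 28, had 352 CPM of the 9 rod transcripts in the corrected counts and 291 CPM in the uncorrected ones. This is below the lowest day 28 library that was used, at 788 CPM. In its corrected counts *Gngt1* stood at 93.1 CPM, *Gnat1* at 68.9, *Pdc* at 57.9 and *Sag* at 51.8 CPM, and *Pde6a* was at 0.

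The library labelled as replicate 1 of the 9-month-old males at day 28 is in the uncorrected counts only and entered no comparison. Its sex markers go against its label as well. Its 9 rod transcripts summed to 1510 CPM, just below the 1550 to 3520 CPM of the other 3 libraries of its group in the uncorrected counts.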
